A study of Mus musculus with 9 samples.

Results

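Cdh1 and 9 further genes that mark the periportal side of the liver lobule were followed in the livers of Tet-OFF mice given doxycycline (Dox) or tetracycline (Tc). The 10 genes were Cdh1, Hal, Gls2 and Cyp2f2 together with 6 urea cycle enzymes, Nags, Cps1, Otc, Ass1, Asl and Arg1, out of 32285 genes in the table. They were chosen from results of these same libraries, in which Cdh1 was higher with both drugs, to ask whether other periportal genes moved with it. The values of either drug against the controls are therefore given as a description. Their calls against the controls are counted only beside the share of all genes called. Only the difference between Dox and Tc is read as a test, and for Cdh1 it is a description too. All 10 passed the filter on low values (a mean of at least 10 normalized counts over the 9 libraries), as did 12100 genes in all.

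The mice were male and 4 weeks old, and 3 libraries were made per group. They carried a piggyBac CAG-CreERT2 transgene, Rosa26-LSL-tTA and Rosa26-tetO-Venus-ires-mCherry, and were derived from V6.5 embryonic stem cells, a C57BL/6 and 129 hybrid line. All 3 groups received tamoxifen, which lets Cre remove a stop cassette so that tTA, driven at Rosa26 in nearly every cell type, turns on Venus and mCherry. Controls received tamoxifen alone, and the other groups also drank Dox hyclate or Tc hydrochloride at 2 mg/mL for 7 days. Both drugs switch tTA off, so an effect of the drug and an effect of losing Venus and mCherry cannot be told apart here.

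Blood enters the liver lobule at the portal vein and leaves at the central vein, and hepatocytes along this path express different genes. Periportal hepatocytes carry most of the urea cycle, in which ammonia is bound as carbamoyl phosphate in mitochondria and leaves the cytosol as urea, and they also degrade glutamine and histidine. Cdh1, which encodes the adhesion protein E-cadherin, is expressed by periportal hepatocytes and by bile duct cells, while pericentral hepatocytes carry glutamine synthetase and much of the cytochrome P450 system. RNA of whole liver keeps no position in the lobule, so "periportal" names what these genes are known for and was not measured.

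Recovered reads on genes ranged from 7426136 to 12183041 per library. In all 3 groups, library 3 could be rebuilt closely from libraries 1 and 2, with fitted weights of 58.6% and 40.9% in the controls, 61.3% and 34.4% with Dox and 59.7% and 36.9% with Tc. The groups therefore hold less independent information than 3 mice each, and p-values from all 9 together come out too small. Each gene called by limma in the lists is therefore also given by DESeq2 without libraries 3. Dox library 2 stood apart from the other Dox libraries, and 35.2% of the genes tested differed over 2-fold between Dox libraries 1 and 2, against 4.84% in the controls and 8.45% with Tc. Hepatocyte markers such as Alb (albumin) and Apoa1 were abundant in every library, and 6 of 8 pancreatic acinar markers, Cpa1 among them, were at 0 throughout, while Cela2a reached at most 7.92 and Ctrb1 1.05 normalized counts. Fewer cells of a type and less RNA per cell cannot be told apart in such bulk samples.

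The RefSeq promoter table (GRCm38.p6) held 5 of the 10 genes. All 5 are shown. Nags and Ass1 were highest in Dox library 2, Otc and Cyp2f2 were lowest there, and Hal varied little. A link between these sequences and the levels was not tested. Each line runs 5′ to 3′ on the plus strand and ends 1 base before the first annotated transcript start, and capitals mark motif matches.
Nags (chr11:102145263-102145512): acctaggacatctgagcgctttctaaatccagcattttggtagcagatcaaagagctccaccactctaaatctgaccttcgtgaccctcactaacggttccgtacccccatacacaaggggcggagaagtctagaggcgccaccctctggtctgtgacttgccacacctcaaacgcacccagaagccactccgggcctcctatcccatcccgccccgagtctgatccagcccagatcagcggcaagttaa
Ass1 (chr2:31470020-31470206): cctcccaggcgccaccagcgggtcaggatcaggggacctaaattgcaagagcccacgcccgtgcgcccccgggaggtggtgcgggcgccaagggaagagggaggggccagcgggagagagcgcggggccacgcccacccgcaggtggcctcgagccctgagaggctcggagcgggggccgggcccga
Otc (chrX:10252055-10252229): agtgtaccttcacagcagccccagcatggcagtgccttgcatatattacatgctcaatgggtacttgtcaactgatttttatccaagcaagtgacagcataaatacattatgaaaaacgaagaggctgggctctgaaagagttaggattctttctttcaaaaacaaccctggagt
Cyp2f2 (chr7:27119705-27119908): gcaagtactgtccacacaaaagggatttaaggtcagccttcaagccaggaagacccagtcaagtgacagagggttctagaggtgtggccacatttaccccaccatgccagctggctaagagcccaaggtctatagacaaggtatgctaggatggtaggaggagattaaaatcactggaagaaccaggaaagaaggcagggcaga
Hal (chr10:93488518-93488767): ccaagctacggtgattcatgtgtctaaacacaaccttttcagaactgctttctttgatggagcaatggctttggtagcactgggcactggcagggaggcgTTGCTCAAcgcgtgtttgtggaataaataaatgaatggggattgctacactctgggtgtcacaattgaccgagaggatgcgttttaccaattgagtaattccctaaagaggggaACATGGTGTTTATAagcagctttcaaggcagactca

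Windows of 300 bases around each start (250 before and 50 after) were searched on both strands for 5 motifs, those of regulators active in liver and the TATA box. C/EBP was searched as TTGCNNAA, HNF4 as CAAAGTCCA, the cyclic AMP response half-site as TGACG, the glucocorticoid receptor as ACANNNTGT and the TATA box as TATAAA. The Hal window held 1 match each of the C/EBP, glucocorticoid receptor and TATA motifs, and the last 2 shared 1 base. Its TATA match was on the minus strand, opposite to the gene. The Nags window held 1 half-site, after the transcript start and outside the stretch shown, and the Ass1, Otc and Cyp2f2 windows held no match to these letters. Of 32817 promoter windows in the table, 10.8% held the C/EBP motif, 0.475% HNF4, 20.8% the half-site, 6.85% the glucocorticoid receptor motif and 13.6% the TATA box. G and C made up 74% of the Ass1 window and 57.7% of the Nags window, against 44.3% for Otc, 50.3% for Cyp2f2 and 47.7% for Hal, and the median of all windows was 52.7%.

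Cdh1 (chr8:106603351-106670246, GRCm38, plus strand) was higher in every Dox and Tc library than in every control library. Its normalized counts in libraries 1, 2 and 3 were 273, 377 and 359 in the controls, 830, 1133 and 885 with Dox and 1024, 762 and 963 with Tc. These rested on 258 to 1144 reads per library, and the libraries of a group spanned at most 1.38-fold between the first and second. The group means were 336 ± 55.4 (SD, n = 3) in the controls, 949 ± 162 with Dox and 917 ± 138 with Tc. All differences given here are on the scale of log2(normalized count + 1). Cdh1 was 1.5 higher with Dox (SE 0.19) and 1.45 higher with Tc (SE 0.19). Without libraries 3 the differences were 1.59 and 1.46. Both comparisons use the same controls. Between the drugs Cdh1 differed by 0.05 (95% interval from -0.38 to 0.48, limma). This is a description too, since Cdh1 was chosen for being higher with both drugs.

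Hal (chr10:93488768-93519304, plus strand), the histidase that begins histidine breakdown, had lower group means with both drugs than in the controls. It stood at 7774, 6010 and 6850 normalized counts in the control libraries, 5847, 7696 and 6152 with Dox and 5238, 5663 and 5537 with Tc. All Tc libraries lay below all control libraries, by 0.32 in the log2 mean, while the Dox and control libraries overlapped. Gls2 (chr10:128194457-128210004, plus strand), the liver glutaminase that releases ammonia from glutamine, stood at 3720, 1994 and 2936 in the controls, 4429, 3943 and 3958 with Dox and 4285, 2960 and 3687 with Tc. The Dox libraries were above all controls, with a log2 difference of 0.56 (SE 0.24), and the Tc libraries overlapped them at 0.37 (SE 0.24).

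Cyp2f2 (chr7:27119909-27133660, plus strand), a cytochrome P450 of periportal hepatocytes, spanned the widest range of the 10 genes. Its normalized counts were 1195, 3242 and 2426 in the controls, 21892, 138 and 13465 with Dox and 18479, 2319 and 10561 with Tc. Libraries 1 and 3 of both drugs were above all controls, and library 2 of both drugs was below the highest control. Dox library 1 was 159 times library 2, and Tc library 1 was 7.97 times library 2. The log2 difference was 0.71 with Dox (SE 1.72) and 1.86 with Tc (SE 1.72), and without Dox library 2 the Dox value was 3.02. The Dox library 2 value rested on 120 reads.

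The 3 mitochondrial members of the urea cycle had different patterns. Nags (chr11:102145513-102149477, plus strand), which makes the activator that Cps1 needs, stood at 663, 675 and 694 normalized counts in the controls, 654, 1538 and 927 with Dox and 614, 632 and 653 with Tc. Only Dox libraries 2 and 3 were above the controls. Cps1 (chr1:67123026-67231259, plus strand), the enzyme that binds ammonia as carbamoyl phosphate, stood at 58690, 47781 and 54557 in the controls, 62020, 127213 and 80945 with Dox and 66998, 35785 and 53548 with Tc. All Dox libraries were above all controls, the first of them by a small margin, and the Tc libraries spread to both sides of the controls. Otc (chrX:10252305-10321024, plus strand), which joins carbamoyl phosphate to ornithine, stood at 2635, 1994 and 2693 in the controls, 4890, 442 and 3093 with Dox and 3475, 3018 and 2760 with Tc. Dox library 1 was the highest of all 9 libraries and Dox library 2 the lowest, 11.1-fold apart.

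The 3 cytosolic enzymes were highest in Dox library 2 and were not higher with Tc. Ass1 (chr2:31470207-31520672, plus strand), which joins citrulline to aspartate, stood at 23391, 13231 and 18024 normalized counts in the controls, 17274, 31754 and 21747 with Dox and 15779, 13343 and 15616 with Tc. Both drug groups overlapped the controls. Asl (chr5:130011258-130029247, minus strand), which splits argininosuccinate into arginine and fumarate, stood at 11558, 7462 and 9342 in the controls, 4255, 24657 and 11201 with Dox and 4805, 4517 and 5089 with Tc. All Tc libraries were below all controls, by 0.96 in the log2 mean (SE 0.53), and Dox library 1 lay below all of the Tc libraries. Arg1 (chr10:24915221-24927484, minus strand), the arginase that releases urea, stood at 11630, 10948 and 10713 in the controls, 10346, 27304 and 16384 with Dox and 10627, 7668 and 9951 with Tc. Dox library 1 was below the lowest control, and the other Dox libraries were above the highest.

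**Figure D1:**
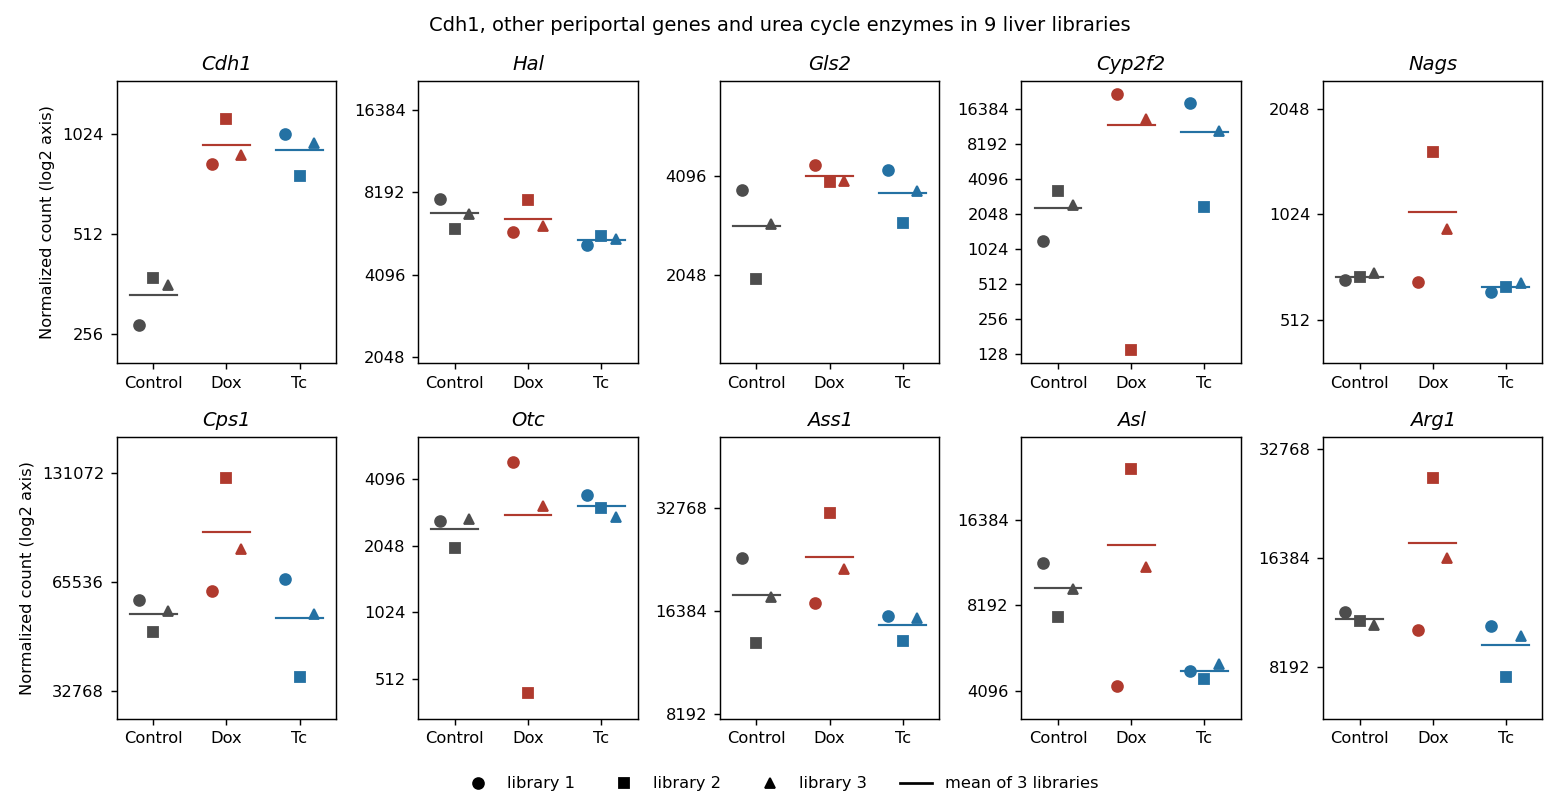
Normalized counts (log2 axis) of the 10 genes in the 9 libraries, by group on the x axis, with a symbol per library number and a line at the mean of the 3 libraries. Cdh1, which was chosen for being higher with both drugs, is alone above all controls in every library of both. Dox library 2 is the highest of the 9 for 5 of 6 urea cycle enzymes and the lowest for Otc and Cyp2f2.

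Of the 10 genes, 1 (Cdh1) was called with Dox against the controls, that is over 2-fold apart with a limma adjusted p under 0.05, where 5% of all genes tested were called. The same gene was the 1 called with Tc, against 0.165% of all genes. DESeq2 on recovered reads without libraries 3 called 1 with Dox (1.22% of all genes) and 0 with Tc (0.0744%). On all recovered reads, DESeq2 and edgeR each called 1, Cdh1, with Dox (9.4% and 5.52% of all genes) and with Tc (1.56% and 0.174%). Since the choice of the genes used these comparisons, nothing is read from these counts. Against the controls, libraries of the groups did not overlap for 3 genes with Dox (Cdh1, Cps1 and Gls2, all higher), where 33.3% of all genes did not overlap. With Tc they did not overlap for 6, of which Cdh1 and Otc were higher and Arg1, Hal, Asl and Nags lower, where 30.7% of all genes did not overlap. The median log2 difference over the 10 genes was 0.54 with Dox and -0.09 with Tc, and that of all genes tested was 0.00 in both. Cdh1 was the 1 gene of the 10 that was higher with both drugs in every library, which follows from its choice. The share of all genes for which this held was not counted.

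Between Dox and Tc, none of the 10 genes passed both thresholds in the limma fit of all 9 libraries, where 0.215% of all genes tested were called. At an unadjusted p under 0.05 there were 2 genes, Arg1 and Nags. DESeq2 on all recovered reads called 1, Asl (log2 difference 1.48, adjusted p = 0.0443), where it called 4.98% of all genes. EdgeR called 0 of the 10 and 0 of all genes tested, with 3 of the 10 at an unadjusted p under 0.05. The share of all genes at that unadjusted p was not counted for the limma or edgeR fit of all libraries, so nothing is read from these counts. Without libraries 3, limma called 0 of the 10 and 0 had an unadjusted p under 0.05, where 454 of 12096 genes tested did. DESeq2 called 0 of them there, against 0.256% of all genes. The libraries of the drugs did not overlap for 3 of the 10, Hal, Nags and Ass1, all higher with Dox, where 24.6% of all genes tested did not overlap.

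The urea cycle enzymes other than Otc had higher group means with Dox than with Tc. In the limma fit the log2 difference between Dox and Tc was 1.14 for Asl (95% interval from -0.07 to 2.35, adjusted p = 0.249) and 0.84 for Arg1 (from 0.09 to 1.58, adjusted p = 0.201). It was 0.77 for Cps1 (limma, from -0.08 to 1.62, adjusted p = 0.260), 0.63 for Nags (from 0.03 to 1.22, adjusted p = 0.22) and 0.62 for Ass1 (from -0.05 to 1.29, adjusted p = 0.255). Otc differed by -0.70 (limma, from -2.39 to 0.98, adjusted p = 0.565) and Cyp2f2 by -1.16 (from -5.08 to 2.77, adjusted p = 0.693). Hal differed by 0.25 (limma, from -0.13 to 0.63, adjusted p = 0.381) and Gls2 by 0.19 (from -0.35 to 0.73, adjusted p = 0.636). These intervals leave room for differences in either direction for 8 of the 10 genes, so that no likeness of the drugs follows from them.

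Libraries 1 of the drugs lay closer to each other than libraries 2 did for these genes. The share of all genes for which this held was not counted, so it is not read as a trait of the 10. Among all genes tested, 35.2% differed over 2-fold between Dox libraries 1 and 2. Dox library 1 minus Tc library 1 was between -0.30 (Cdh1) and 0.49 (Otc) on the log2 scale for all 10 genes. Dox library 2 minus Tc library 2 was 2.45 for Asl, 1.83 for Arg1 and for Cps1, -2.77 for Otc and -4.06 for Cyp2f2. Without Dox library 2, the log2 difference between the drugs was 0.52 for Asl, 0.48 for Arg1, 0.49 for Cps1, 0.34 for Otc and 1.16 for Cyp2f2. Among all genes tested, 33.4% were highest and 32.1% lowest in Dox library 2, against 6 and 2 of the 10 genes here.

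**Figure D2:**
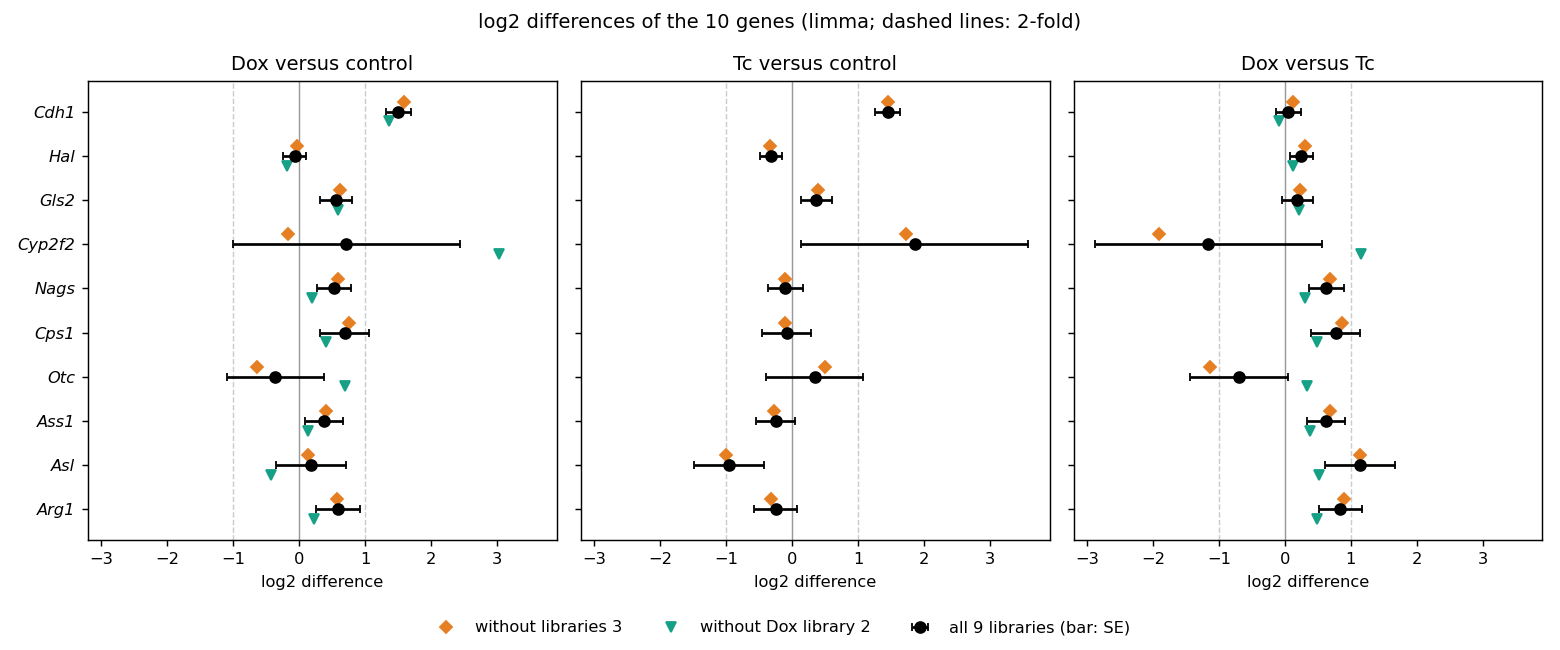
Differences on the log2(normalized count + 1) scale (x axis) of the 10 genes (y axis) in the 3 comparisons, with all 9 libraries (black, bar: SE), without libraries 3 (orange) and, where Dox takes part, without Dox library 2 (green). Cdh1 lies at 1.36 or above against the controls in all of these. Without Dox library 2, Otc and Asl change sign in Dox against control, and Otc, Cyp2f2 and Cdh1 in Dox against Tc.

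Per kilobase of exon, the control levels were in the order Cps1, Ass1, Arg1, Asl, Hal, Cyp2f2, Gls2, Otc, Nags and Cdh1. Cps1 had 9663 ± 992 normalized counts per kilobase (SD, n = 3), Otc 575 ± 91.4, Nags 239 ± 5.6 and Cdh1 73.5 ± 12.1. Neighbours whose control libraries overlapped were Cps1 and Ass1, Hal and Cyp2f2, Cyp2f2 and Gls2, and Gls2 and Otc. Cdh1 stayed the lowest of the 10 with Dox (208 ± 35.3) and with Tc (200 ± 30.1).

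Partners of the urea cycle supply its nitrogen or carry its intermediates across membranes. Of 11 partners, 10 passed the filter, and limma and edgeR called 1 with Dox, Slc7a2, while DESeq2 on all libraries called Slc7a2 and Got1. Slc7a2, a cell surface carrier of arginine and ornithine, was 9247, 3835 and 6619 normalized counts in the controls, 16932, 39712 and 23963 with Dox and 13721, 5900 and 10068 with Tc. It was 2.03 higher with Dox on the log2 scale (SE 0.45, limma, adjusted p = 0.032), and DESeq2 without libraries 3 gave 2.11 (adjusted p = 0.112). Got1, the cytosolic aspartate aminotransferase, stood at 1740, 39350 and 14500 with Dox against 1415 to 4255 in the controls, so that Dox library 1 lay within the control range and the other Dox libraries above it. Its log2 difference was 1.95 by limma (adjusted p = 0.217) and 2.7 by DESeq2 (adjusted p = 0.00636), and DESeq2 without libraries 3 gave an adjusted p of 0.268. Slc25a15, the ornithine carrier of mitochondria, differed by 0.26 (SE 0.21). With Tc, limma called 0 of the 10, with 0 at an unadjusted p under 0.05, as did DESeq2 and edgeR. Between Dox and Tc, limma and edgeR called 0, with 2 genes at an unadjusted p under 0.05 in each, and DESeq2 called Got1 and Slc7a2.

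Of 8 regulators of these enzymes, limma and edgeR called 0 in any comparison. By limma, 1 had an unadjusted p under 0.05 with Dox, 1 with Tc and 2 in Dox against Tc. DESeq2 called 1 with Dox and in Dox against Tc, Ppargc1a, a coactivator of fasting genes, which stood at 108, 1463 and 604 normalized counts with Dox and 82.3 to 204 in the controls. Foxa2, a liver transcription factor, came nearest by limma, with 277, 219 and 238 normalized counts in the controls, 159, 114 and 130 with Dox and 227, 216 and 236 with Tc. Its log2 difference of -0.87 with Dox had a limma adjusted p of 0.0175 but was under 2-fold. Hnf4a, a nuclear receptor that keeps hepatocyte identity, stood at 9123, 20158 and 12866 with Dox against 9779 to 11276 in the controls. Cebpa stood at 6993, 1936 and 4907 and Cebpb at 1218, 3076 and 1940 with Dox, so that Dox library 2 was the lowest of the group for the first and the highest for the second.

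Of 15 other periportal genes, limma called 3 with Dox, where Etnppl and G6pc rose and Ctsc fell, against 5% of all genes tested, and the median log2 difference was 0.18. DESeq2 called Ctsc, Etnppl and Tat, edgeR called Ctsc and Etnppl, and DESeq2 without libraries 3 called Etnppl. Between Dox and Tc, limma called Etnppl (median of the 15, 0.31), DESeq2 called Ctsc and Etnppl, and edgeR called 0, with 7 at an unadjusted p under 0.05. With Tc, limma, DESeq2 and edgeR each called 0, with 0 at an unadjusted limma p under 0.05 and a median of -0.02. The medians over all genes tested were 0.00 with Dox, -0.02 between Dox and Tc and 0.00 with Tc. Etnppl, which degrades phosphoethanolamine, stood at 1431, 862 and 1105 normalized counts in the controls, 4960, 14227 and 8051 with Dox and 1042, 1143 and 1105 with Tc. All Dox libraries were above all others. It was 2.90 higher with Dox than in the controls (SE 0.35, limma, adjusted p = 0.00744) and 2.92 higher than with Tc (SE 0.35, limma, adjusted p = 0.0487). In the paired fit with a replicate block, limma gave an adjusted p of 0.101 between the drugs (0.306 with only the drug groups in the model). DESeq2 without libraries 3 called both (adjusted p = 0.000145 and 0.000629).

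G6pc, the last enzyme of glucose release, rose with Dox from 3456 ± 354 to 6925 ± 324 normalized counts (SD, n = 3, log2 difference 1.01, limma, adjusted p = 0.015). Ctsc, which encodes cathepsin C, fell by 1.84 on the log2 scale (limma, adjusted p = 0.0241), with 1562, 1551 and 1695 normalized counts in the controls and 588, 322 and 466 with Dox. Neither was called by DESeq2 without libraries 3 (adjusted p = 0.123 and 0.154). Tat, a tyrosine-degrading enzyme, reached 159364 in Dox library 2 against 13817 in Dox library 1, with a log2 difference from the controls of 1.71 by limma (adjusted p = 0.178) and 2.26 by DESeq2 (adjusted p = 0.00661, and 0.279 without libraries 3). Igfals, an IGF carrier subunit, was 49.5 against 1125 in the same libraries.

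Of 12 pericentral genes, limma called 0 with either drug against the controls, with 4 at an unadjusted p under 0.05 with Dox and 5 with Tc. DESeq2 called Cyp1a2 and Oat with Dox and Cyp1a2 with Tc, edgeR called Cyp1a2 with Dox and 0 with Tc (5 at an unadjusted p under 0.05), and DESeq2 without libraries 3 called 0 in either (2 in each). Between the drugs DESeq2 called Lect2, Oat and Rhbg, and edgeR and DESeq2 without libraries 3 called 0, with 4 and 3 at an unadjusted p under 0.05. The median log2 differences were 0.09 with Dox and 0.33 with Tc. Rhbg, an ammonium transporter, was lower with Dox than with Tc by 1.23 on the log2 scale, with 52.6, 69.0 and 71.3 normalized counts against 134, 147 and 175 (limma, adjusted p = 0.0498, DESeq2 without libraries 3, adjusted p = 0.282). In the paired fit with a replicate block, the limma adjusted p was 0.102 (0.379 with only the drug groups in the model). Glul, the glutamine synthetase that takes up ammonia left by the urea cycle, stood at 8390 ± 861 (SD, n = 3) in the controls, 8826 ± 1414 with Dox and 9874 ± 2131 with Tc. Cyp1a2 stood at 1220 to 1512 in the controls, 2065 to 7900 with Dox and 3174 to 8256 with Tc. Its log2 difference was 1.66 with Dox (SE 0.49, limma, adjusted p = 0.070, DESeq2 without libraries 3, adjusted p = 0.264). With Tc it was 1.92 (SE 0.49, limma, adjusted p = 0.203, DESeq2 without libraries 3, adjusted p = 0.736).

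**Figure D3:**
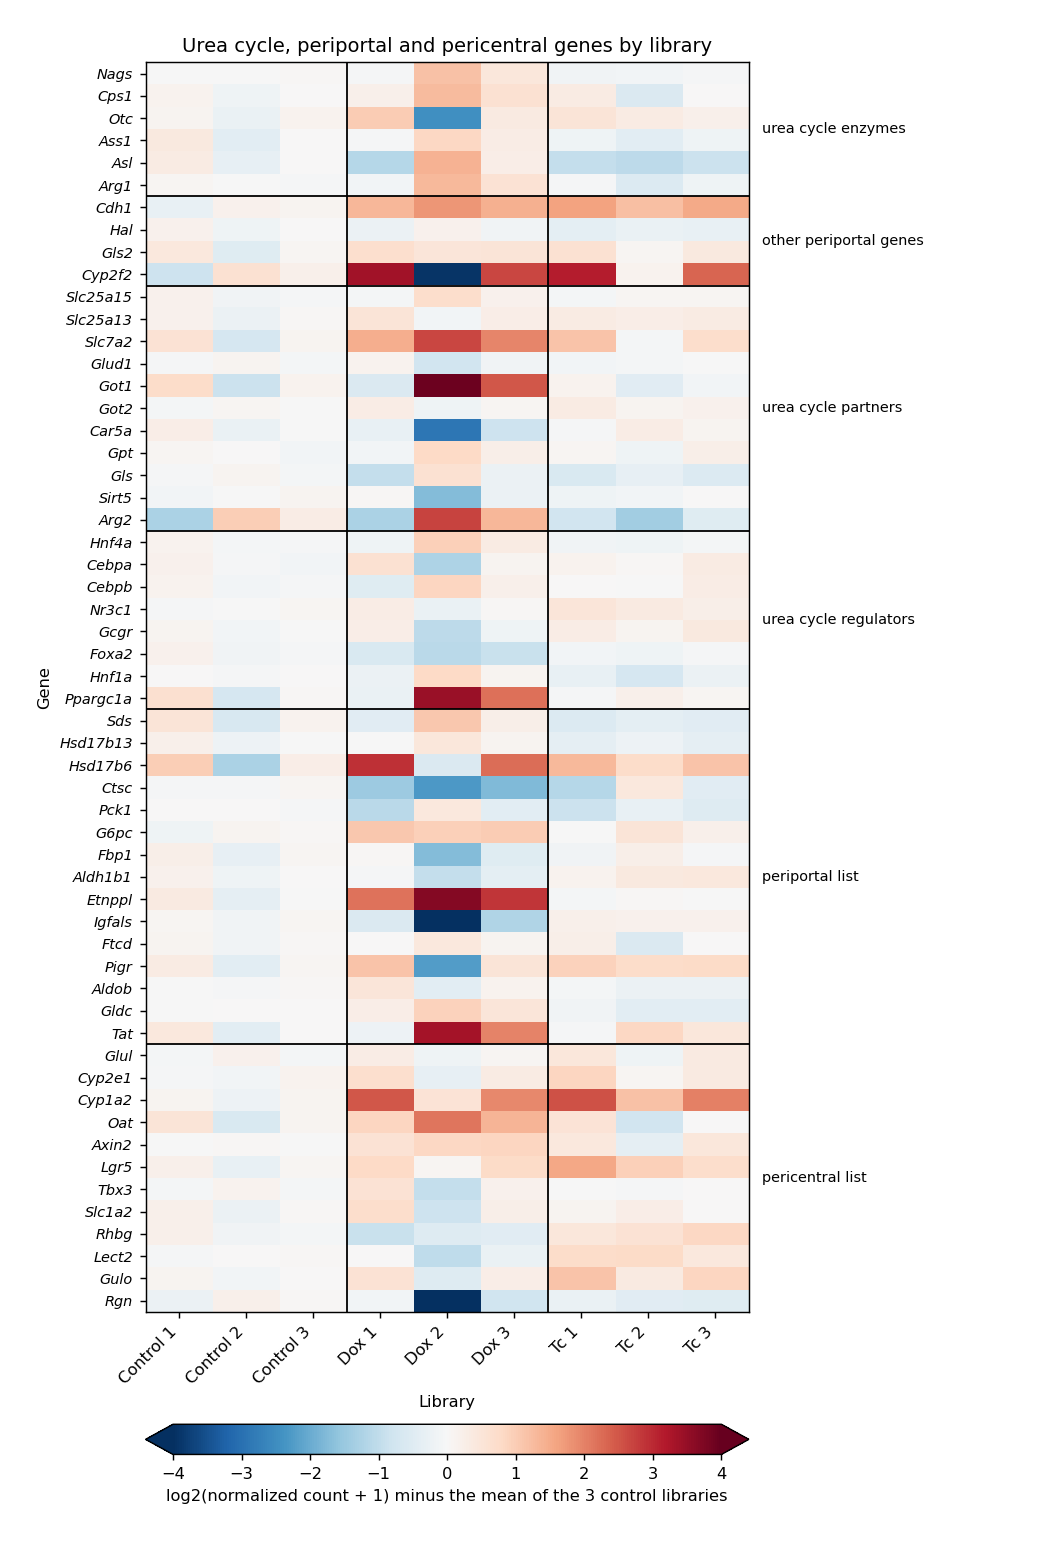
Each cell shows log2(normalized count + 1) of 1 gene (rows, grouped by list) in 1 library (columns) minus the mean of the 3 control libraries, with red above and blue below and colours ending at 4 and -4. Cdh1 is red in all 6 drug libraries, Etnppl in the 3 Dox libraries, and Dox library 2 differs from the other Dox libraries in many rows of every list.

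Among genes whose products join E-cadherin to the cytoskeleton, no change passed the test. Of 7 catenins and other cadherins, limma, DESeq2 and edgeR called 0 in any comparison, and 1, Vcl, had an unadjusted limma p under 0.05, with Tc. Vcl stood at 287, 403 and 386 normalized counts in the controls, 738, 309 and 563 with Dox and 735, 469 and 606 with Tc. Tc and control libraries did not overlap for 5 of the 7, where 30.7% of all genes did not overlap. Of these, Ctnnb1, Vcl and Cdh2 were higher and Ctnnd1 and Afdn lower. With Dox this held for 1, Ctnnd1, which was lower (33.3% of all genes). The median log2 differences of the 7 were -0.06 with Dox and -0.05 with Tc. Ctnnb1, beta-catenin, stood at 1970 ± 65.7 normalized counts (SD, n = 3) in the controls, 2084 ± 438 with Dox and 2383 ± 217 with Tc, Ctnna1 at 1481 ± 94.7, 1352 ± 70.1 and 1433 ± 16.2, and Ctnnd1 at 1936 ± 72.1, 1704 ± 133 and 1775 ± 66.1. Of 18 junction genes of hepatocytes, 1 fell with Dox. With Tc, limma, DESeq2 and edgeR called 0, with 2 at an unadjusted p under 0.05. That gene was Cldn2, which encodes a pore-forming claudin, with 1189, 1342 and 1259 normalized counts in the controls and 623, 247 and 463 with Dox (log2 difference -1.60, limma, adjusted p = 0.0189). DESeq2 without libraries 3 gave it an adjusted p of 0.142.

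Of 6 known repressors of Cdh1, 4 passed the filter, and limma and edgeR called 1 with Dox, Zeb2, while DESeq2 on all libraries called Zeb2 and Snai2. Zeb2 stood at 347, 507 and 385 normalized counts in the controls, 143, 260 and 208 with Dox and 261, 414 and 285 with Tc. It fell by 1.04 on the log2 scale with Dox (SE 0.26, limma, adjusted p = 0.0469), and DESeq2 without libraries 3 gave an adjusted p of 0.393. Snai2 stood at 46.6, 46.9 and 67.4 normalized counts in the controls, 15.8, 28.8 and 26.4 with Dox and 23.4, 56.7 and 26.1 with Tc. All its Dox libraries were below all controls, with a log2 difference of -1.17 by limma (adjusted p = 0.0869) and -1.19 by DESeq2 (adjusted p = 0.0447, and 0.613 without libraries 3). Not all repressors were lower with Dox: of the 4, 3 had a negative difference and 1, Zeb1, a positive one. Zeb1 stood at 177 to 214 in the controls and 221 to 227 with Dox (log2 difference 0.25, SE 0.15). Snai1, which did not pass the filter, stood at 3.18 to 3.81 in the controls and 5.26, 18.4 and 10.6 with Dox. With Tc, limma, DESeq2 and edgeR called 0 of the 4, with 0 at an unadjusted p under 0.05, and Zeb2 differed by -0.38 (SE 0.26). Zeb2 is also expressed by macrophages and endothelial cells, and the part of those cells in its level was not tested.

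Markers of bile duct cells, the other source of Cdh1 in liver, were scarce. Their summed normalized counts over 12 genes ranged from 341 to 367 in the controls, 281 to 514 with Dox and 392 to 478 with Tc, and 4 of the 12 passed the filter. Krt19 stood at 5.29 to 15.9 in the controls, 13.8 to 22.1 with Dox and 9.77 to 21.1 with Tc, Epcam at 5.4 to 14.0 over all 9 libraries, and Cftr was at 0 in all controls. Krt7, which did not pass the filter, stood at 2.54 to 8.85 in the controls, 12.7 to 14.1 with Dox and 4.88 to 12.6 with Tc. Sox9, a transcription factor of bile ducts, was 21.2, 15.0 and 28.0 in the controls, 45.3, 69.0 and 54.5 with Dox and 23.4, 18.9 and 19.4 with Tc. It rose by 1.38 on the log2 scale with Dox (limma, adjusted p = 0.0243), and its difference with Tc was -0.02 (SE 0.28). DESeq2 without libraries 3 gave Sox9 an adjusted p of 0.166 with Dox. The part of bile duct cells in the Cdh1 values was not tested.

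Markers of other liver cells moved in the same libraries. Of 6 macrophage markers limma called 4 lower with Dox (Clec4f, Adgre1, Csf1r and Lyz2), DESeq2 also Vsig4, and DESeq2 without libraries 3 called Clec4f (adjusted p = 0.0195) but not Adgre1 (0.154), Csf1r (0.275) or Lyz2 (0.21). The 6 markers had summed normalized counts of 6055 to 10169 in the controls, 1762 to 3811 with Dox and 3317 to 6096 with Tc. Of 6 endothelial markers limma called 2 lower with Dox, Cdh5 and Stab2, and DESeq2 without libraries 3 called Stab2 (adjusted p = 0.00441) but not Cdh5 (0.435). DESeq2 on all libraries called Stab2 with Dox and, with Tc, Lyve1, both lower. The endothelial sums were 4808 to 4994 in the controls, 2258 to 3021 with Dox and 3459 to 4263 with Tc. With Tc, limma called 0 of either set, with 5 macrophage and 4 endothelial markers at an unadjusted p under 0.05. All 6 of each set had negative log2 differences with Tc. Their medians were -0.87 and -0.43, against -1.73 and -0.90 with Dox. Of 7 lymphocyte and neutrophil markers 3 passed the filter, and Ptprc, a marker of blood cells, fell by 1.34 on the log2 scale (limma, adjusted p = 0.0372, DESeq2 without libraries 3, adjusted p = 0.353). Of 6 stellate and fibroblast markers, limma, DESeq2 and edgeR called 0 in any comparison, with 1 at an unadjusted p under 0.05 in each. Reln stood at 1100 ± 53.8 (SD, n = 3) in the controls, 855 ± 25.9 with Dox and 1255 ± 38.8 with Tc, while Dcn and Col3a1 spread over 664 to 2298 and 65.6 to 720 with Dox. Of 6 hepatocyte markers, Fgb, a fibrinogen chain, fell by 1.76 with Dox (limma, adjusted p = 0.0354, DESeq2 without libraries 3, adjusted p = 0.105). DESeq2 on all libraries also called Alb, which stood at 956160 to 1408836 normalized counts in the controls, 255548 to 607453 with Dox and 576729 to 1093211 with Tc. All Dox libraries of Alb were below all controls, with a log2 difference of -1.52 by limma (adjusted p = 0.208) and -1.46 by DESeq2 (adjusted p = 0.00101, and 0.268 without libraries 3). The summed hepatocyte markers were 1426516 to 1944872 in the controls, 441111 to 1100020 with Dox and 1151866 to 1727220 with Tc, lowest in Dox library 2. The part of these cell types in the values of the 10 genes was not tested.

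The genes most like Cdh1 over libraries 1 and 2 of the 3 groups were none of the other 9. Among 9378 genes with a mean of at least 50, the root mean square difference from Cdh1 (log2 scale, each gene relative to its controls, 6 libraries) was smallest for Mthfd1l (0.28), a mitochondrial folate enzyme, followed by Simc1 (0.31), Gstm2 (0.36), Tdo2 (0.37) and Slc25a51 (0.38). Tdo2, which begins tryptophan breakdown, stood at 5821, 6244 and 5890 normalized counts in the controls, 16847, 23146 and 18362 with Dox and 13200, 9080 and 10754 with Tc. All its drug libraries were above all controls, which follows largely from choosing it for its likeness to Cdh1. Mthfd1l stood at 15.9, 23.0 and 22.9 in the controls and 54.7 to 90.9 with the drugs. It reached the mean of 50 only through its drug libraries. Of the 10 genes, Gls2 was closest to Cdh1 (0.94, place 759 of 9378) and Cyp2f2 farthest (2.59, place 9166). These are descriptions over 6 libraries in which both drugs share the controls, and no test was made.

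**Figure D4:**
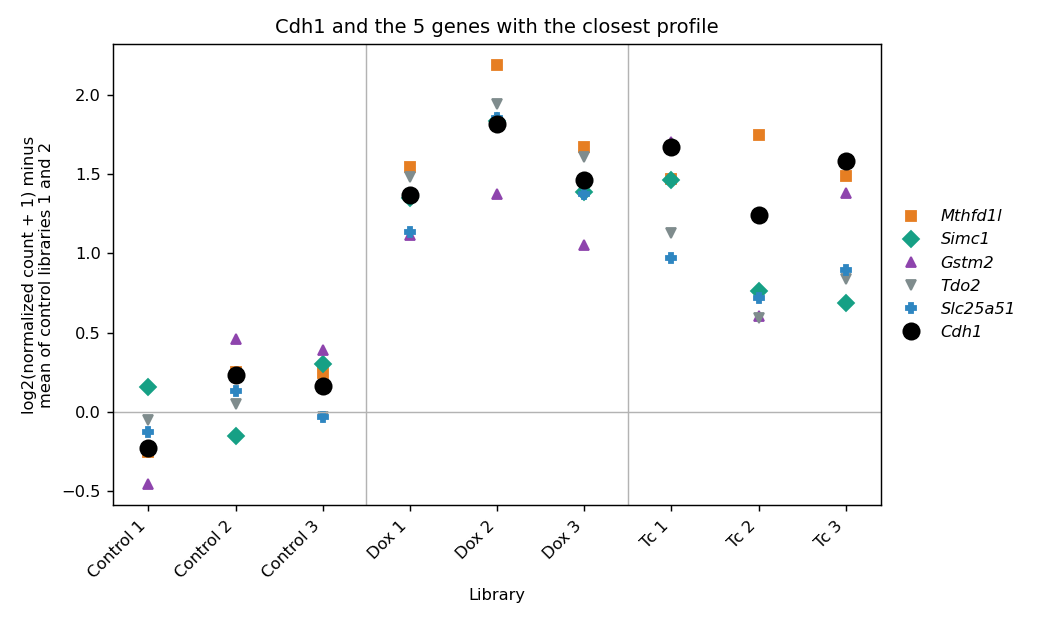
Cdh1 (black) and the 5 genes with the closest profile, in the 9 libraries (x axis), as log2(normalized count + 1) minus the mean of control libraries 1 and 2 (y axis). Every drug library of the 6 genes lies above all of that gene's control libraries. The 5 genes were chosen for their likeness to Cdh1 in these libraries, so this follows largely from the choice.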

How the data were processed

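Liver RNA of 9 mice (3 groups of 3 libraries) was sequenced as single-end reads from a directional library kit. The authors trimmed reads with cutadapt, aligned them with STAR 2.7.11ac to mm10, counted unique reads per GENCODE gene with HTSeq 2.0.5 and normalized with DESeq2 1.42.0. The deposited signal is the normalized count, each library's counts scaled by its own size factor. The strand setting of the counting is not given in the sources used here, so reads of Nags, Gls2 and Cyp2f2 may include reads of Gm11586, Spryd4 and Gm15883, whose exons overlap theirs on the other strand.

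Log2(normalized count + 1) was tested with limma 3.58.1 (trend, all 9 libraries in 1 model, R 4.3.3) with Benjamini-Hochberg adjustment over the 12100 genes whose mean reached 10. A gene was called at a fold change over 2 and an adjusted p under 0.05. Each value was a whole multiple of 1 read (100% within 0.01), and these reads were tested with DESeq2 1.42.0 and edgeR 4.0.16. The tests were checked on simulated counts. Symbols matched 32158 identifiers, and gene positions are those of GENCODE on GRCm38. Nothing but the numbers 1 to 3 in the labels ties libraries of different groups. The deviations of Dox and Tc libraries from their group means were correlated at equal numbers (r = 0.287, 0.321 and 0.182), so that Dox and Tc were also compared as pairs. For controls against either drug, r ranged from -0.0807 to 0.055.

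Members and gene lists were chosen with earlier results of these data known. The rule for named genes took all 10 genes, every called gene of the lists, otherwise up to 3 of highest mean per list, and the 5 genes most like Cdh1. Genes named outside this rule (Got1, Slc25a15, Foxa2, Tat, Igfals, Glul, Cyp1a2, Krt19, Krt7, Epcam, Cftr, Ppargc1a, Oat, Lect2, Vcl, Cdh2, Afdn, Snai1, Snai2, Zeb1, Vsig4, Lyve1, Alb and Apoa1) were picked with their values known. As alternatives, changes were made to the pseudocount, low-value filter, scaling, test, model, library weights and replicate block, and libraries were left out.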

Additional observations from a re-analysis of the deposited data

Results flagged for a closer look

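Etnppl was higher with Dox than with Tc by 2.92 on the log2 scale, a tested difference between the drugs (limma, adjusted p = 0.0487 with all 9 libraries, 0.755 without libraries 3). Rhbg differed between the drugs by -1.23 (limma, adjusted p = 0.0498 with all 9 libraries, 0.755 without libraries 3). Reln, a stellate cell marker, was below the controls in every Dox library and above them in every Tc library, and the drug means differed by -0.55 on the log2 scale. That opposite movement against the controls was not tested, and the direct difference had a limma adjusted p of 0.0752.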

How the results depend on the processing

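For the 10 genes, all 420 differences from the controls under the alternatives (210 per drug) moved by less than the spread between replicates. That spread was wide for Cyp2f2, Otc and Asl, so signs could still change. With Dox, Cyp2f2 went from 0.71 to -0.17 by limma without libraries 3, -0.63 without Dox library 1 and 3.02 without Dox library 2. Without Dox library 2, Otc went from -0.36 to 0.69 and Asl from 0.18 to -0.43. The Cdh1 difference lay between 1.35 and 1.67 for Dox and between 1.3 and 1.57 for Tc over 21 alternatives. The number of the 10 genes called with Dox was 2 with array weights (a fit that stopped before it converged), 0 with limma without libraries 3, and from 0 to 2 when each library was left out (0 without control library 3, 2 without Dox library 2). With Tc it was 0 with the same total per library, 0 with the replicate block, 2 with array weights, 0 with limma and 0 with DESeq2 without libraries 3, and from 0 to 1 when each library was left out (1 without Dox library 1 or 2). Between Dox and Tc it was 1 with DESeq2 on recovered reads, 1 with array weights, and from 0 to 2 when each library was left out (2, Arg1 and Asl, without Dox library 1). With the replicate block it was 0 for Dox and Tc in the model of 3 groups and 0 with only the paired groups, and the block changed no other call of the 10 genes. Of the genes called in other lists with Dox against the controls, Slc7a2 and Fgb were not called with the replicate block (limma, adjusted p = 0.0572 and 0.0626). With only the 2 groups compared, Slc7a2, Cldn2, Sox9, Zeb2, Cdh5, Csf1r, Lyz2 and Ptprc were not called (limma, adjusted p from 0.0577 to 0.0894), nor were Etnppl and Rhbg between the drugs (0.274 for each).

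Between the drugs, Cdh1 turned to -0.10 with array weights and ranged from -0.09 (without Dox library 2) to 0.14 (without Dox library 1) when each library was left out, with -0.08 without Tc library 2. Otc turned to 0.10 with array weights and ranged from -1.39 without Dox library 1 to 0.34 without Dox library 2. Cyp2f2 turned to 0.17 with DESeq2, 0.18 with edgeR, 0.48 with array weights and 0.08 with DESeq2 without libraries 3, and ranged from -2.49 without Dox library 1 to 1.16 without Dox library 2. Asl ranged from 0.52 to 1.79 and Arg1 from 0.48 to 1.18. The cause of these changes was not tested. Of the genes called with Dox in other lists, Stab2 stayed called in 9 of 9 fits that left out 1 library, Etnppl in 8 (lost without control library 3) and Clec4f in 7. Slc7a2, Ctsc, G6pc, Cldn2, Sox9, Zeb2, Adgre1, Csf1r, Cdh5, Ptprc and Fgb were not called without any 1 control library or without Dox library 3, and Lyz2 not without control library 2 or 3 or Dox library 3, though the signs held. The smallest differences were -0.81 for Zeb2, -0.85 for Cdh5 and 0.92 for G6pc. Between the drugs, the calls of Etnppl (from 2.53 to 3.29) and Rhbg (from -1.32 to -1.09) were each lost without any 1 control library, Dox library 3, or Tc library 2 or 3. Limma without libraries 3 called 0 genes of all tested in any comparison, with 1038 at an unadjusted p under 0.05 for Dox, 239 for Tc and 454 for Dox against Tc.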
